A study of Homo sapiens with 30 samples.

Results

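The 10 heat shock chaperone genes described here are HSPA8, HSPA1A, HSPA1B, HSP90AA1, HSP90AB1, HSPD1, HSPE1, HSPH1, DNAJB1 and HSPB1. They were chosen by name and are 10 of the 60483 gene records measured in each of 30 RNA-seq libraries. All 10 passed the filter on low counts that kept 18424 genes. The cells were PANC-1, an established line of epithelial cells from a human pancreatic ductal adenocarcinoma, of wild-type genotype in every group and gathered into 3D tumoroids in medium with 1% fetal bovine serum. DSLBs (droplet-supported lipid bilayers) are oil droplets coated with a lipid bilayer that act as synthetic cells, and cultures that contain them are hybrid tumoroids. There were 10 groups of 3 cultures. The control groups were DSLB-free tumoroids and tumoroids with plain DSLBs, whose bilayers bear no protein. In the 8 protein groups the DSLBs presented the His-tagged recombinant ectodomain of PD-1, an immune checkpoint receptor of T cells. In one of these groups PD-1 stood alone, and in the other 7 it was joined by a second ectodomain, that of TIGIT, LAG3, ICOS, CTLA4, CD40L, CD27 or CD2. No living immune cell was present, 1 cell line was used, and no group presented a second protein without PD-1. The question put to these genes was whether DSLBs, PD-1 or a second protein beside PD-1 changed their transcripts.

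The gene-level counts of a library summed to between 21.9 and 60.5 M, with a median of 40.6 M. Among the epithelial markers, KRT8 was at 2428 to 3465 TPM (abundance scaled by transcript length and library total), EPCAM at 46.7 to 78.9 TPM and CDH1 at 19.4 to 49.2 TPM over the 30 libraries. CD3E, a marker of T cells, was listed at 0 in 30 libraries, and PTPRC, a marker of leukocytes, did not exceed 0.330 TPM. The highest levels of the endothelial markers PECAM1 and VWF were 0.120 and 0.220 TPM. Of the fibroblast markers, LUM reached at most 0.800 TPM and PDGFRB 0.990 TPM, whereas COL1A1 was at 130 to 402 TPM. CD68, listed as a leukocyte marker, was at 22.5 to 50.4 TPM. A library stood apart in each of 3 groups by the lowest share of counts from mitochondrial genes. It was 2.66% in PD-1 replicate 1 against 3.95% and 4.0% in the other cultures of that group, 1.71% in PD-1/LAG3 replicate 3 against 4.44% and 4.56%, and 3.19% in DSLB-free replicate 2 against 4.81% and 4.98%. Where leaving out these 3 libraries changed a call, values are given for the comparisons with PD-1 and for PD-1 against plain DSLBs. They are also given for the test of any difference and for all protein against control groups. They are not given for groups with a second protein against plain DSLBs, or for any protein group against DSLB-free tumoroids. No source used here gives a date or run of sequencing, and a batch that followed the groups cannot be told apart from them.

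Heat shock proteins are chaperones that hold, fold or refold other proteins. HSP70 proteins bind short hydrophobic stretches of a client in a cycle that J-domain proteins start and nucleotide exchange factors end, and clients such as kinases and steroid receptors pass on to HSP90. HSP60 and its lid HSP10 enclose proteins inside mitochondria, and small heat shock proteins bind unfolded chains without ATP. After heat or other proteotoxic stress the factor HSF1 binds heat shock elements, which are inverted repeats of the letters GAA, and raises transcription of many of these genes. Tumor cells often hold high levels of them.

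Because such repeats are the letters through which HSF1 is known to act, the promoters of the 10 genes were searched for them. RefSeq promoter windows of 300 bases on GRCh38.p14 (250 bases before and 50 after a start) were found for all 10 genes, 16 windows in all because some genes have several starts. The 2-unit motifs were GAANNTTC and TTCNNGAA, each of which reads the same on both strands. The 3-unit motifs were GAANNTTC followed by NNGAA and TTCNNGAA followed by NNTTC, so each contains both 2-unit motifs. A 2-unit motif was found for 8 of the 10 genes (9 of the 16 windows) and a 3-unit motif for 4 genes, HSPA8, HSP90AA1, HSP90AB1 and HSPD1. Of 35116 promoter windows of the same length, 13.5% held a 2-unit motif and 0.490% held a 3-unit motif. HSPH1 and HSPE1 had no match in their windows. For HSPE1 this depends on the start used, since its window begins at chr2:197500129. The HSPD1 stretch printed below, with its matches, lies just outside that window at chr2:197500061-197500090. It precedes the HSPE1 start in the GENCODE v44 annotation, chr2:197500140. A match is a description of letters, not of binding.

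On GRCh38 (GENCODE v44) the HSP70 genes lie at chr11:123057489-123063230 (HSPA8, minus strand), chr6:31815543-31817946 (HSPA1A, plus) and chr6:31827738-31830254 (HSPA1B, plus), and their relative HSPH1 at chr13:31134973-31162388 (minus). The HSP90 genes lie at chr14:102080742-102139699 (HSP90AA1, minus) and chr6:44246166-44253888 (HSP90AB1, plus). HSPD1 (minus) at chr2:197486584-197516737 overlaps the oppositely directed HSPE1 (plus) at chr2:197500140-197503449 in the annotation. DNAJB1 lies at chr19:14514769-14560391 (minus) and HSPB1 at chr7:76302673-76304295 (plus).

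The stretches below hold the matches, in capitals, from 1 window per gene, and for HSPH1, which had the largest change of the 10 genes for PD-1 against plain DSLB, the 150 bases before the start, which hold none. Each is written 5′ to 3′ on the strand of its gene. The stretches of HSPA8 and HSPD1 lie within annotated exons of some transcripts and are therefore cut to 30 bases. A further match in another DNAJB1 window, just after its start, is not printed.
HSPH1, chr13:31162389-31162538, minus strand: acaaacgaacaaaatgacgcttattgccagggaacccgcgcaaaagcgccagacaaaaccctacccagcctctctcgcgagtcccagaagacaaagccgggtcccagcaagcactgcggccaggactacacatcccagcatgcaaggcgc
HSPA8, chr11:123062354-123062383, minus strand: agagcgggggcgagcttGAAAGTTCCAGAA
HSPA8, chr11:123062169-123062198, minus strand: gggccccTTCTGGAAGGTTCtaagataggg
HSP90AA1, chr14:102087045-102087194, minus strand: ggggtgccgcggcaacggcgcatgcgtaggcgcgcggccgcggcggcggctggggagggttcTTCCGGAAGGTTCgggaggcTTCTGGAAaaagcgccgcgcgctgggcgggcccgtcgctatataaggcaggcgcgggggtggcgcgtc
HSP90AB1, chr6:44247768-44247862, plus strand: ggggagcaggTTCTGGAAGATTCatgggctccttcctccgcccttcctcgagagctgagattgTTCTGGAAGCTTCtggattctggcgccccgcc
DNAJB1, chr19:14518408-14518547, minus strand: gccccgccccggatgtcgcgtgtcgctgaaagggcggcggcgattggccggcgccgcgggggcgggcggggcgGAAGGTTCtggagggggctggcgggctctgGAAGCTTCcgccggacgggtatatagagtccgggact
HSPA1A, chr6:31815363-31815482, plus strand: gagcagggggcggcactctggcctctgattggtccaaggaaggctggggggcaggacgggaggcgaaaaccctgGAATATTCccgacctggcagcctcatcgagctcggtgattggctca
HSPA1B, chr6:31827558-31827677, plus strand: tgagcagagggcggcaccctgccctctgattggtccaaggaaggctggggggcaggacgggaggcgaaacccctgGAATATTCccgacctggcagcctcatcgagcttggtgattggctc
HSPD1, chr2:197500061-197500090, minus strand: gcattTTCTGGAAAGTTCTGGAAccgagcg
HSPB1, chr7:76302453-76302552, plus strand: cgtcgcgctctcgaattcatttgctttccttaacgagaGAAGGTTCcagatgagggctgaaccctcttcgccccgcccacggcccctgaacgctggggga
HSPA1A and HSPA1B are neighbors on chromosome 6 and near-identical copies. Aligned over the 250 bases before their starts, their promoters had 235 identical positions, 14 mismatches and 2 gaps (93.6% identity).

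The same likeness limits what reads can say about this pair. Of the 2397 windows of 75 nt (the read length) in HSPA1A transcripts, 1716 also occur in HSPA1B. The estimation error that RSEM gave for the count of a library was 0.665% to 1.37% of the count for HSPA1A and 1.19% to 2.07% for HSPA1B, against at most 0.204% for the other 8 genes. Both are therefore reported as uncertain in how their reads were split, and a fit on their summed counts is listed among the alternatives.

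Per unit of transcript length, HSPA8, the constitutive HSP70 of the cytosol, was the most abundant of the 10, with a mean of 1483 TPM over the 30 libraries and a range of 1057 to 2014 TPM. It ranked at place 114 of the 18424 genes. HSP90AB1, the constitutive HSP90, followed at 1166 TPM (1057 to 1334 TPM), and the range of HSPA8 spans it entirely. HSPE1 (507 TPM, 338 to 681), HSPD1 (487 TPM, 410 to 608), HSPB1 (479 TPM, 395 to 572) and HSP90AA1 (429 TPM, 368 to 557) formed a middle tier with overlapping ranges. The inducible HSP70 gene HSPA1A was at 179 TPM (155 to 259). DNAJB1 (134 TPM, 112 to 179), HSPH1 (109 TPM, 76.8 to 187) and HSPA1B (105 TPM, 87.6 to 124) were the lowest. Counts were deep for all of them, from 3243 reads for DNAJB1 in its shallowest library to 126178 for HSP90AB1 in its deepest. Together the 10 genes held 0.588% ± 0.00887 of all TPM in DSLB-free tumoroids and 0.606% ± 0.00420 with plain DSLBs (SD, n = 3). In the 8 protein groups the mean share was between 0.470% with PD-1/CD40L and 0.509% with PD-1 or PD-1/TIGIT, and the highest protein library, at 0.530%, lay below the lowest control library, at 0.579%.

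TPM is a share of a fixed total, and on that scale the median of 14475 genes lay 0.06 to 0.17 (log2) lower in the protein groups than with plain DSLBs. On CPM, counts scaled to a common library size by the TMM method, the same median moved by at most 0.01. Differences between groups are therefore given on the CPM scale, where they are relative to the median gene. HSP90AB1 shows what the scale does, since its log2 TPM ratio to plain DSLBs was −0.11 to −0.18 in the 8 protein groups and its log2 fold change in CPM ran from −0.13 to 0.04.

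**Figure D1:**
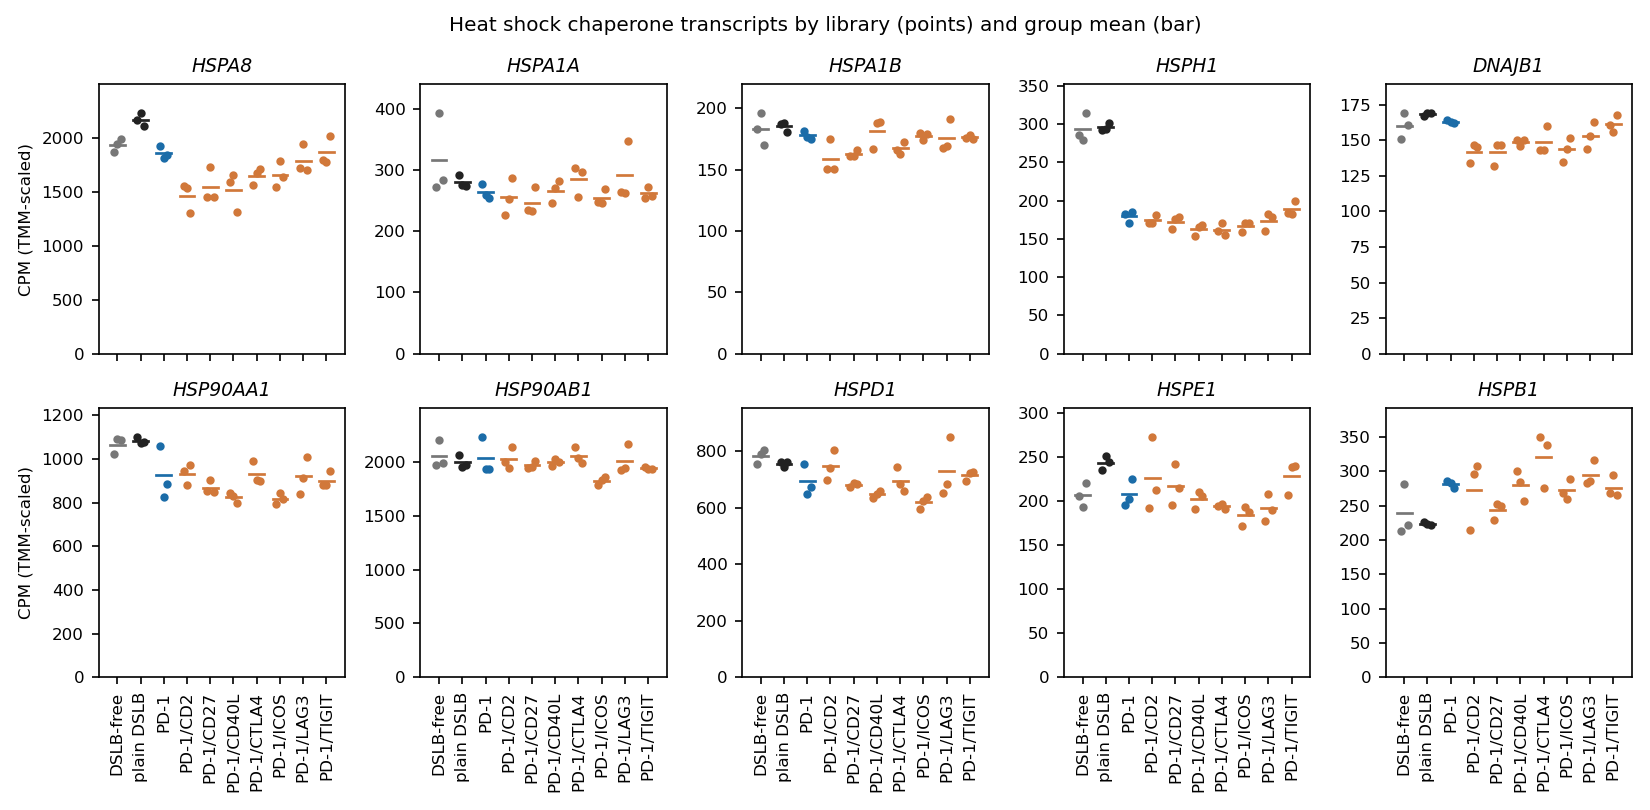
TMM-scaled counts in CPM (y axis, from 0, own scale per gene) of the 10 chaperone genes in the 10 groups (x axis), with 1 point per culture and a bar at the group mean. HSPH1 lies between 279 and 314 CPM in the 6 control cultures and between 154 and 200 CPM in the 24 protein cultures, and HSP90AB1 shows no such step.

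Across the 10 groups, edgeR's quasi-likelihood test of any difference called 7 of the 10 genes, HSPA8, HSP90AA1, HSPD1, HSPE1, HSPH1, DNAJB1 and HSPB1, where 41.0% of all 18424 genes were called. The adjusted p was 5.85e-13 for HSPH1, 7.79e-05 for HSPA8, 0.000423 for HSP90AA1, 0.00679 for DNAJB1, 0.00884 for HSPB1, 0.0115 for HSPD1 and 0.0168 for HSPE1. It was 0.0577 for HSPA1B, 0.179 for HSPA1A and 0.392 for HSP90AB1, which did not pass. Without the 3 libraries that stood apart 8 genes passed, with HSPA1B added (edgeR adjusted p = 0.0357), where 7757 of 18647 genes were called. The group with the highest mean, in TPM as in CPM, was a control group for 9 of the 10 genes, and for HSPB1 it was PD-1/CTLA4. For HSP90AB1 the lead was slight in CPM, 2057 CPM in DSLB-free tumoroids against 2054 CPM with PD-1/CTLA4. The share of all genes with their highest mean in a control group was not counted.

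No chaperone gene passed the test for plain DSLBs. For plain DSLB against DSLB-free, edgeR called 0 of the 10 genes, where 0.0109% of all genes (2 genes) were called and 1123 genes had an unadjusted p under 0.05. DESeq2 and limma-voom also called 0 of the 10, where they called 15 and 2 of all genes. Among the 10, HSPE1, which encodes HSP10, had the lone unadjusted p under 0.05, with a log2 fold change of 0.24 (95% interval 0.04 to 0.44, edgeR adjusted p = 0.778). For HSPH1 the interval was −0.11 to 0.14 and for HSP90AA1 −0.13 to 0.18, so larger changes than these are outside the intervals. DSLB-free replicate 2 had the highest level of its group for HSPA1A, 393 CPM against 272 and 284 CPM, and for HSPB1, 282 CPM against 213 and 222 CPM.

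PD-1 on the DSLBs went with a lower level of HSPH1, and with smaller differences in HSP90AA1 and HSPB1. HSPH1 encodes HSP110, a relative of HSP70 that exchanges its nucleotide and helps to loosen protein aggregates. Its level was 292, 294 and 301 CPM with plain DSLBs, 286, 279 and 314 CPM without DSLBs, and 183, 171 and 185 CPM with PD-1. The PD-1 cultures did not overlap with either control group. HSPH1 fell to 0.607 of its level with plain DSLBs (log2 fold change −0.72, SE 0.0625, 95% interval −0.85 to −0.59, adjusted p = 3.39e-09 by edgeR) and stood at place 27 of 18424 genes by p. HSP90AA1, the inducible HSP90, was at 1100, 1072 and 1077 CPM with plain DSLBs and at 1060, 827 and 887 CPM with PD-1. PD-1 replicate 1 lay close to the plain cultures, and the groups did not overlap (log2 fold change −0.23, SE 0.0744, adjusted p = 0.0277 by edgeR). HSPA8, HSPE1 and DNAJB1, none of them called, did not overlap between these groups either. The share of all genes without overlap between them was not counted. HSPB1, the small heat shock protein HSP27, was at 226, 223 and 222 CPM with plain DSLBs and at 286, 283 and 275 CPM with PD-1. HSPB1 rose, with a log2 fold change of 0.33 (SE 0.108, adjusted p = 0.0266 by edgeR), although DSLB-free replicate 2, at 282 CPM, reached the PD-1 level.

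These were 3 of the 10 genes called for PD-1 against plain DSLB, 2 lower and 1 higher, where 22.0% of all genes were called (10.7% lower and 11.3% higher). The count of members is thus near the share of all genes, and the median log2 fold change was −0.11 over the 10 genes and 0.00 over all genes tested. HSPH1 was called in 12 of 12 alternative fits and whichever library was left out. HSP90AA1 lost its call without a filter on low counts (log2 fold change −0.22), with a GC trend (−0.17) or a length trend (−0.13) removed, and in 5 of 6 fits without 1 library (−0.23 to −0.15). Without PD-1 replicate 1 it was called (−0.36, adjusted p = 0.00109 by edgeR). Without the 3 libraries that stood apart 4 genes were called, where 3494 of 18647 genes were, HSP90AA1 being at −0.34 and HSPD1 added (−0.19, edgeR adjusted p = 0.0301). HSPB1 lost its call in 6 of 6 such fits, its log2 fold change staying between 0.30 and 0.36, and it was at 0.20 with the GC trend and at 0.24 with the length trend removed, where it was called. Against DSLB-free tumoroids, PD-1 hybrids had 2 of the 10 genes called, where 26.4% of all genes were called. These were HSPH1 (−0.71, edgeR adjusted p = 3.17e-09) and HSP90AA1 (−0.20, edgeR adjusted p = 0.0428), and HSPB1 (0.23, edgeR adjusted p = 0.110) did not pass.

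The lower HSPH1 level was present in every protein group. Mean levels were 189 ± 9.69 CPM with PD-1/TIGIT, 180 ± 7.61 CPM with PD-1, 174 ± 5.68 CPM for PD-1/CD2, 174 ± 12.2 CPM for PD-1/LAG3, 173 ± 8.08 CPM with PD-1/CD27, 167 ± 6.99 CPM with PD-1/ICOS, 162 ± 7.36 CPM when CD40L was the second protein and 162 ± 8.03 CPM when CTLA4 was (SD, n = 3 cultures each). Neighbors in that order differed by less than the larger of their SDs. The control groups were at 296 ± 4.84 CPM with plain DSLBs and 293 ± 18.3 CPM without DSLBs. Over all protein cultures the lowest, median and highest values were 154, 171 and 200 CPM, and over the 6 control cultures 279, 293 and 314 CPM. HSPH1 was the sole member whose 24 protein cultures did not overlap with the 6 control cultures. Of all genes, 5.11% were lower without overlap and 4.43% higher without overlap in the same sets of libraries.

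Set against plain DSLBs, the 8 protein groups gave log2 fold changes of HSPH1 from −0.87 to −0.64, and the gene was called in 8 of 8. HSP90AA1 was also called lower in 8 of 8 groups (−0.41 to −0.22). HSPA8 was called lower in 6 of 8, with PD-1 (−0.22, edgeR adjusted p = 0.0673) and PD-1/TIGIT (−0.22, edgeR adjusted p = 0.0706) as the exceptions, and HSPB1 was called higher in 6 of 8 (0.12 to 0.52 over all 8). With plain DSLBs HSPA8 was at 2168, 2232 and 2119 CPM, above every one of the 24 protein cultures, which reached 2025 CPM at most, while DSLB-free cultures (1869, 1946 and 1996 CPM) lay within their range. For HSP90AA1 and HSPH1 the plain cultures also lay above all protein cultures. The share of all genes for which this holds was not counted. HSPB1 was highest with PD-1/CTLA4, at 350, 275 and 338 CPM, and these cultures overlapped with those of PD-1. DNAJB1, at 167, 169 and 169 CPM with plain DSLBs, was called lower in 5 groups. HSPE1 was at 236, 251 and 245 CPM and HSPD1 at 762, 743 and 764 CPM with plain DSLBs. HSPE1 was called lower in 4 groups, HSPD1 in 2 and HSPA1B in 2, while HSPA1A and HSP90AB1 were called in none. The number of the 10 genes called was 7 for PD-1/CD40L, where 25.5% of all genes were called. It was 6 for PD-1/ICOS (19.6%), 6 for PD-1/CD2 (29.6%), 6 for PD-1/CTLA4 (34.2%), 5 for PD-1/LAG3 (30.3%), 5 for PD-1/CD27 (23.8%) and 3 for PD-1/TIGIT (22.5%). All of these comparisons share the 3 plain DSLB cultures, so they are not independent of each other.

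Some of these calls depended on the reference. With DSLB-free tumoroids as the reference, a setting added after the data were seen, HSPH1 (−0.85 to −0.63) and HSP90AA1 (−0.38 to −0.19) were again called lower in 8 of 8 groups. HSPE1 was called in 0 of 8, with log2 fold changes from −0.16 to 0.15 of which 4 lay above 0. Its mean level was 244 ± 7.5 CPM with plain DSLBs and 207 ± 13.6 CPM without DSLBs. HSPB1 was called higher in 2 of 8 groups (0.02 to 0.42), PD-1/CTLA4 and PD-1/LAG3. HSPA8 was called lower in 4 groups (−0.40 to −0.05), HSPD1 in 3, HSPA1A in 2, DNAJB1 in 2 and HSPA1B in 1. For HSPA1A the reference included DSLB-free replicate 2, at 393 CPM against 272 and 284 CPM in the other cultures of that group. The number of the 10 genes called was 6 with CD2 beside PD-1, where 31.1% of all genes were called, 6 with CD27 (27.4%), 4 with CD40L (26.9%), 4 with CTLA4 (32.7%), 3 with ICOS (20.7%), 3 with LAG3 (28.7%) and 2 with TIGIT (25.7%).

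**Figure D2:**
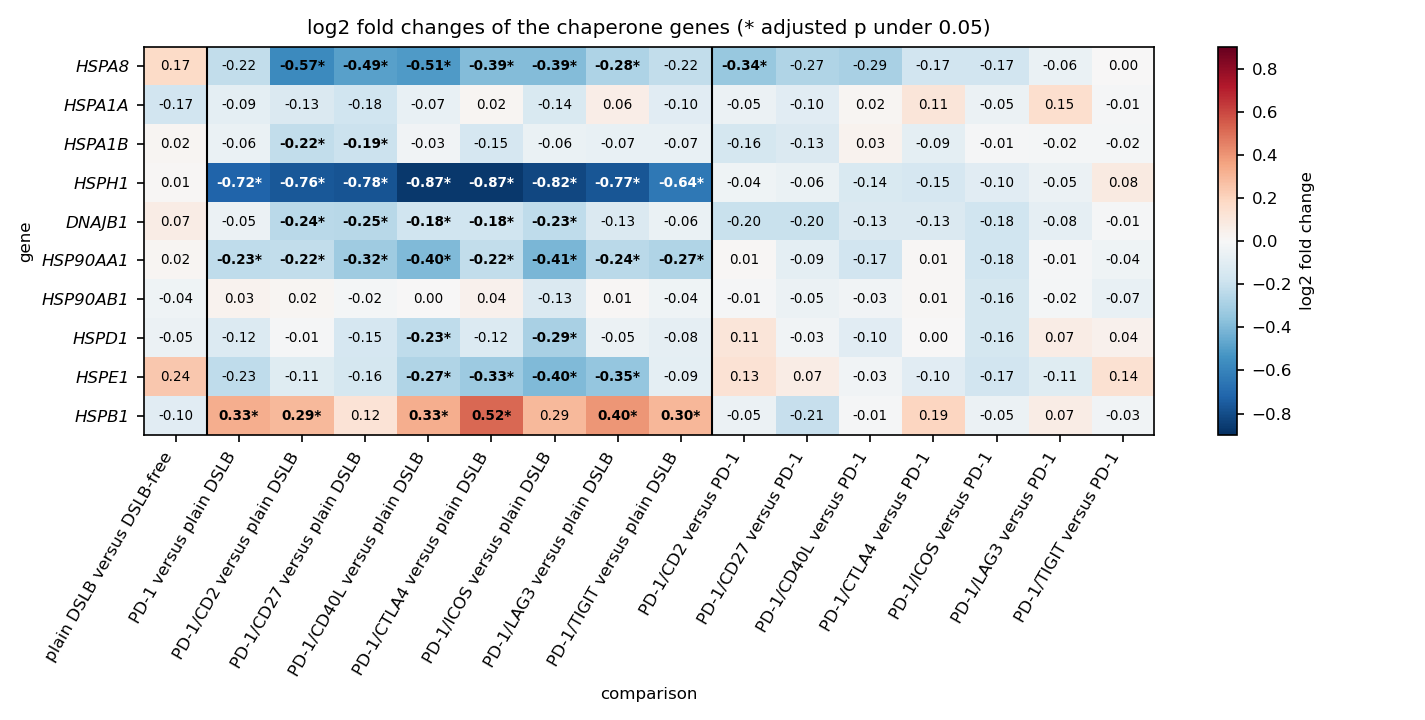
log2 fold changes in TMM-scaled counts of the 10 chaperone genes (rows) for plain DSLB against DSLB-free, the 8 protein groups against plain DSLB and the 7 groups with a second protein against PD-1 (columns, separated by lines), with an asterisk where the edgeR adjusted p was under 0.05. HSPH1 carries an asterisk in 8 of 8 columns against plain DSLB, between −0.87 and −0.64, and in none of the columns against PD-1.

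In a comparison added after the data were seen, the mean of the 8 protein groups was set against the mean of both control groups. It called 8 of the 10 genes, 7 lower and 1 higher, where 50.4% of all genes were called (24.5% lower and 25.9% higher). HSPH1 changed most (−0.77, SE 0.0330, edgeR adjusted p = 1.06e-16), followed by HSPA8 (−0.30, SE 0.0475, edgeR adjusted p = 6.53e-06), HSP90AA1 (−0.27, SE 0.0408, edgeR adjusted p = 2.74e-06) and HSPB1 (0.27, SE 0.0613, edgeR adjusted p = 0.000526). HSPA1A (−0.17), HSPD1 (−0.16), DNAJB1 (−0.13) and HSPA1B (−0.10) fell by less. HSPE1 (−0.12, edgeR adjusted p = 0.0541) and HSP90AB1 (−0.03, edgeR adjusted p = 0.465) did not pass. In alternative fits of this comparison HSPE1 was called in 6 of 9, HSP90AB1 in 0 of 9 and HSPA1B in 5 of 8. HSPD1 was called in 8 of 9 and lost its call with a GC trend removed. Without the 3 libraries that stood apart 6 of the 10 were called, where 9449 of 18647 genes were, with HSPA1A (−0.09, edgeR adjusted p = 0.0991) and HSPA1B (−0.08, edgeR adjusted p = 0.0582) lost. The HSPA1A call was also lost without DSLB-free replicate 2 alone (−0.07, edgeR adjusted p = 0.323) and without plain DSLB replicate 1, 2 or 3 (−0.17 to −0.15). The HSPA1B call was lost without DSLB-free replicate 1 or 2 or plain DSLB replicate 1 or 2 (−0.09 to −0.07). The median log2 fold change was −0.14 over the 10 genes and 0.01 over all genes.

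GC content, mitochondrial share and a nuclear RNA were set beside this contrast. HSPB1, the member that rose, had the highest GC content of the 10 at 65.2%, and HSPH1 the lowest at 39.2%. With a GC trend removed per library, HSPB1 was at 0.15 and HSPH1 at −0.73 in the comparison of protein with control groups, and both were called. The mitochondrial share was 1.71% to 7.0% in the protein cultures (median 4.58%) and 3.19% to 5.19% in the controls (median 4.8%). MALAT1, a nuclear noncoding RNA, was at 1029 to 2869 CPM in the protein cultures and 895 to 1189 CPM in the controls, and at 1064 ± 55.7 CPM with PD-1 against 930 ± 36.1 CPM with plain DSLBs. Their part in the results was not tested.

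Adding a second protein to PD-1 is the comparison the study was built on. Here HSPA8, with CD2, was the one member that passed edgeR's test. HSPA8 encodes HSC70, which folds new proteins and also uncoats clathrin vesicles. It was at 1925, 1821 and 1845 CPM with PD-1 and at 1558, 1541 and 1306 CPM with PD-1/CD2, so the groups did not overlap. Those of DNAJB1, which edgeR did not call, did not overlap either, and the share of all genes without overlap was not counted. HSPA8 fell to 0.788 of the PD-1 level (log2 fold change −0.34, SE 0.0868, 95% interval −0.52 to −0.17, edgeR adjusted p = 0.0445). For PD-1/CD2 against PD-1 this was 1 of the 10 genes, where 1.23% of all genes were called. The call was close to the threshold. It was kept in 8 of 12 alternative fits, with log2 fold changes of HSPA8 between −0.39 and −0.31 and adjusted p-values between 0.00817 and 0.333. Without 1 library it was kept in 1 of 6 fits, the one without PD-1/CD2 replicate 1, and the log2 fold change ran from −0.39 to −0.27. Without the 3 libraries that stood apart it was −0.32 (edgeR adjusted p = 0.116). The mitochondrial share was 5.08% ± 0.916 with PD-1/CD2 and 3.54% ± 0.764 with PD-1, and MALAT1 was at 1988 ± 502 and 1064 ± 55.7 CPM (SD, n = 3), and their part in the difference was not tested.

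With the other second proteins the mean of HSPA8 ran from 1522 to 1868 CPM. The order of mean levels was plain DSLB 2173 ± 56.7 CPM, DSLB-free 1937 ± 64.1 CPM, PD-1/TIGIT 1868 ± 136 CPM, PD-1 alone 1864 ± 54.5 CPM, PD-1/LAG3 1791 ± 136 CPM, PD-1/ICOS 1659 ± 120 CPM, PD-1/CTLA4 1654 ± 77.0 CPM, PD-1/CD27 1546 ± 163 CPM, PD-1/CD40L 1522 ± 179 CPM and PD-1/CD2 1468 ± 141 CPM (SD, n = 3). Apart from the plain and DSLB-free groups at the top, whose difference did not pass the test (0.17, edgeR adjusted p = 0.852), neighbors differed by less than the larger of their SDs. Against PD-1 the log2 fold change was −0.29 with CD40L (95% interval −0.47 to −0.11, edgeR adjusted p = 0.198) and −0.27 with CD27 (−0.45 to −0.09, edgeR adjusted p = 0.0913), neither past the threshold. With TIGIT it was 0.00 (−0.17 to 0.18). Whether CD2 differs from the other second proteins in HSPA8 was not tested.

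No chaperone gene passed edgeR's test with any of the other 6 second proteins against PD-1. The share of all genes called was 2.29% for PD-1/CD27, 0.0109% for PD-1/CD40L, 0.0434% for PD-1/CTLA4 and 0% for PD-1/ICOS, PD-1/LAG3 and PD-1/TIGIT. At an unadjusted p under 0.05 there were 3 of the 10 genes with CD27, 4 with CD40L, 2 with CTLA4, 4 with ICOS, and 0 with LAG3 or TIGIT. Of all 18424 genes, 3134 with CD27, 2091 with CD40L, 2445 with CTLA4, 1880 with ICOS, 1052 with LAG3 and 681 with TIGIT were under that value. DESeq2 on all libraries called 2 genes for PD-1/CD27, HSPA8 and DNAJB1, where it called 783 of all 18424 genes. It called none of the 10 for the other 5 second proteins. Without PD-1/CD27 replicate 2, edgeR called HSPA8 for that group (−0.37, edgeR adjusted p = 0.0282). These 7 comparisons share the 3 PD-1 cultures. DNAJB1, the HSP40 that delivers clients to HSP70 and stimulates its ATPase, was at 164, 163 and 162 CPM with PD-1, at 134, 147 and 145 CPM with PD-1/CD2, and at 132, 147 and 147 CPM with PD-1/CD27. Its log2 fold change was −0.20 in both (edgeR adjusted p = 0.107 with CD2 and 0.0786 with CD27), and between −0.20 and −0.01 over the 7 second proteins. With CD2, DNAJB1 was called in 2 of 12 alternative fits, DESeq2 on all libraries and edgeR with a length trend removed.

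**Figure D3:**
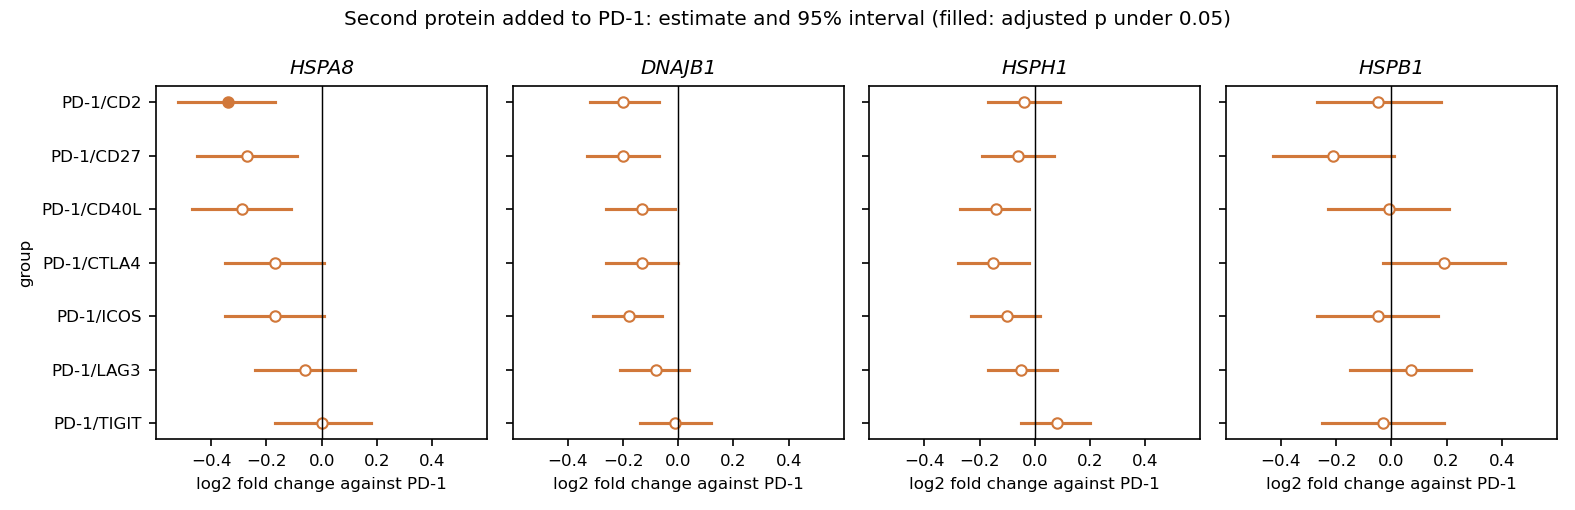
log2 fold change against PD-1 (x axis) with its 95% interval for HSPA8, DNAJB1, HSPH1 and HSPB1 in the 7 groups with a second protein (y axis), filled where the edgeR adjusted p was under 0.05. The filled point is HSPA8 with PD-1/CD2 at −0.34, and for HSPH1 the estimates lie between −0.15 and 0.08.

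For HSPH1 a second protein gave estimates between −0.15 (CTLA4, 95% interval −0.28 to −0.02) and 0.08 (TIGIT, −0.05 to 0.20), so a change of the size seen between PD-1 and plain DSLBs lies outside these intervals. HSPD1 and HSPE1, the mitochondrial chaperonin HSP60 and its lid HSP10, are transcribed in opposite directions. Their annotated spans overlap. The library kit named in the study's methods is directional, but the strand setting of the counting is unknown here. Reads from the overlap may therefore not be assigned with certainty. HSPD1 was at 756, 650 and 675 CPM with PD-1 and at 700, 741 and 804 CPM with PD-1/CD2, and the groups overlapped (log2 fold change 0.11, 95% interval −0.04 to 0.26, edgeR adjusted p = 0.518). HSPE1 was at 196, 202 and 225 CPM with PD-1 and at 192, 273 and 213 CPM with PD-1/CD2 (0.13, 95% interval −0.07 to 0.32, edgeR adjusted p = 0.575). Both were lowest in CPM with PD-1/ICOS, at 619 ± 21.1 CPM for HSPD1 and 185 ± 11.1 CPM for HSPE1, where they were called lower than with plain DSLBs (−0.29, edgeR adjusted p = 0.00658, and −0.40, edgeR adjusted p = 0.00310) but not than with PD-1 (−0.16, edgeR adjusted p = 0.462, and −0.17, edgeR adjusted p = 0.541). Against DSLB-free tumoroids HSPD1 was called (−0.34, edgeR adjusted p = 0.00144) and HSPE1 was not (−0.16, edgeR adjusted p = 0.248). These are transcript levels and say nothing of phosphorylated or total HSP60 protein.

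HSPA1A and HSPA1B, the stress-inducible HSP70 genes, and HSP90AB1 did not pass the test of any difference. HSPA1A ran from 226 to 348 CPM in the protein cultures (median 261 CPM) and from 272 to 393 CPM in the controls (median 279 CPM). HSPA1B ran from 151 to 191 CPM (median 174 CPM) and from 170 to 196 CPM (median 185 CPM). HSP90AB1 ran from 1784 to 2232 CPM (median 1955 CPM) and from 1949 to 2207 CPM (median 1984 CPM). In each of the 3 genes the protein and control cultures overlapped. PD-1/LAG3 replicate 3, with the mitochondrial share of 1.71%, had the highest HSPA1A level of the protein cultures, 348 CPM, and the highest HSPD1 level of all 30 libraries, 851 CPM.

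The 10 members did not all vary together. Over 45 pairs of members, the median Pearson correlation of log2 CPM across the 30 libraries was 0.37 (−0.61 to 0.86), with 36 pairs above 0. With group means removed the median was 0.33 (−0.36 to 0.79), with 35 pairs above 0. HSPH1 correlated at 0.80 with HSP90AA1, 0.70 with HSPA8, 0.60 with DNAJB1 and −0.61 with HSPB1, and within groups at 0.43, 0.18, 0.36 and −0.15. HSPA8 correlated with DNAJB1 at 0.74 and HSPD1 with HSPE1 at 0.39, and within groups at 0.20 and 0.13. The points share libraries and group differences, so these values describe the set. Outside the 10, among 13840 genes with a mean count of at least 50, the closest in pattern to HSPH1 were CD24 (r = 0.975), TENT5C (0.973) and TOP2A (0.971). For HSP90AA1 they were BLMH (0.931), PSMD1 (0.924) and MSH6 (0.907), for HSPA8 CCT3 (0.913), PSME3 (0.912) and PSMD2 (0.898), and for HSPB1 ATP5F1D (0.951), PGLS (0.948) and MAP1LC3A (0.947). The closest to DNAJB1 were CDC20 (0.889), TMEM106C (0.871) and CNOT9 (0.870). For HSPD1 they were HTATSF1 (0.916), SNRPD1 (0.909) and DKC1 (0.908), and for HSPE1 PPP1R8 (0.834), ERH (0.833) and H2BC5 (0.797).

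The wider chaperone network was read from 8 lists with 57 genes, of which 54 passed the filter on low counts. For PD-1 against plain DSLB, 10 of the 54 fell and 2 rose in edgeR's test, with a median log2 fold change of −0.02 over the 54. In both directions together this is near the 22.0% of all genes called. Of all genes 10.7% were lower and 11.3% higher, a more even split than among the 54. That difference in split was not tested, and the genes below describe the network without setting it apart. Of 10 HSP90 co-chaperones 4 fell and none rose. These were CHORDC1 (−0.57, SE 0.111, edgeR adjusted p = 0.000479), FKBP4 (−0.31, SE 0.0651, edgeR adjusted p = 0.000991), AHSA1 (−0.28, edgeR adjusted p = 0.0362), which stimulates the HSP90 ATPase, and STIP1 (−0.23, edgeR adjusted p = 0.0103), which bridges HSP70 and HSP90. CHORDC1 was at 90.2, 93.7 and 94.1 CPM with plain DSLBs and at 58.5, 61.6 and 67.6 CPM with PD-1. Of 8 J-domain proteins, DNAJA1 (−0.38, SE 0.0718, edgeR adjusted p = 0.000286) and DNAJA4 (−0.25, edgeR adjusted p = 0.0149) fell. DNAJA1, an HSP40 of the cytosol, was at 598, 615 and 620 CPM with plain DSLBs and at 435, 480 and 490 CPM with PD-1.

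Among 7 organelle chaperones, HYOU1 (−0.29, edgeR adjusted p = 0.00495) and HSP90B1 (−0.23, edgeR adjusted p = 0.0415) of the endoplasmic reticulum fell and TRAP1, the mitochondrial HSP90, rose (0.20, edgeR adjusted p = 0.0319). Of 8 subunits of the TRiC chaperonin, which folds actin and tubulin, CCT6A fell (−0.19, edgeR adjusted p = 0.0140). Of 4 genes measured in the list of small heat shock proteins, HSPB8 rose (0.72, edgeR adjusted p = 0.0105) from a level of 0.874 to 1.03 CPM with plain DSLBs to 1.22 to 1.80 CPM with PD-1. Among 6 other HSP70 and HSP110 genes, HSPA6 fell (−1.0, SE 0.356, edgeR adjusted p = 0.0443) at a level under 2 CPM and with overlapping groups, 0.610 to 1.88 CPM and 0.466 to 0.760 CPM. None of the 8 HSP70 co-chaperones passed, among them ST13 (−0.01) and BAG3 (0.08). None of the 3 genes in the list of heat shock factors passed either. HSF1, the factor known to bind heat shock elements, had a log2 fold change of 0.04 (SE 0.0612, edgeR adjusted p = 0.719), and HSBP1, an inhibitor of HSF1, of −0.02 (edgeR adjusted p = 0.862). In the test of any difference among the 10 groups HSBP1 passed (edgeR adjusted p = 0.00606) and HSF1 did not (0.110).

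**Figure D4:**
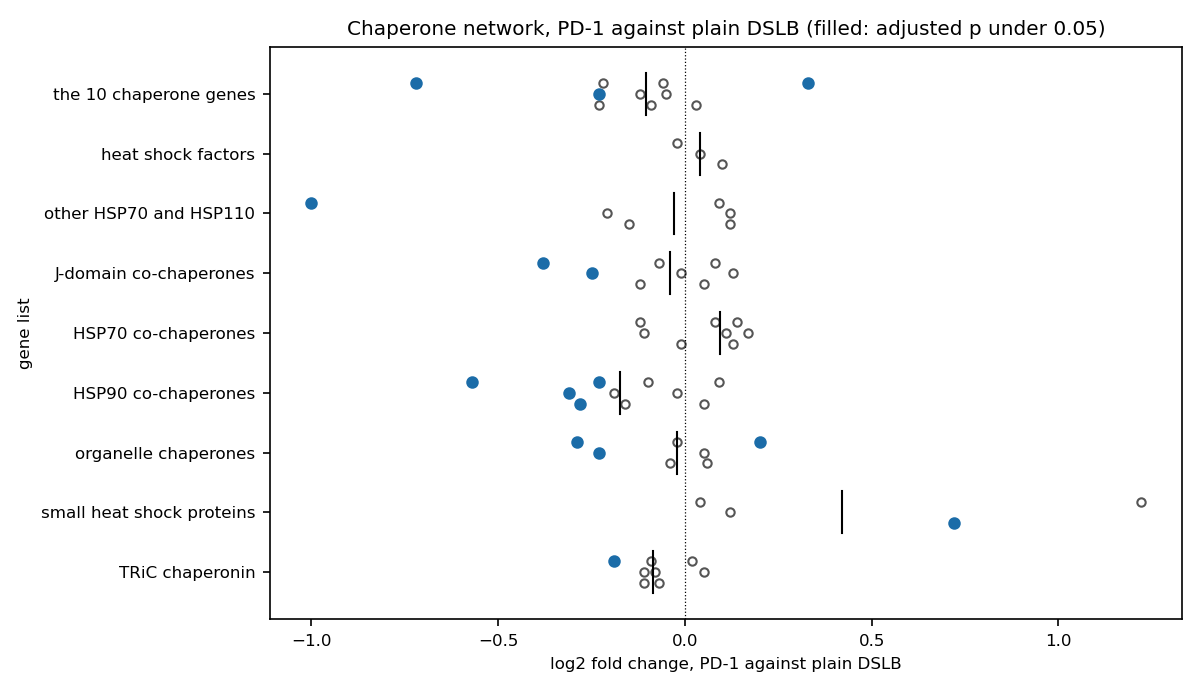
log2 fold change for PD-1 against plain DSLB (x axis) of the 10 chaperone genes and of 54 further genes in 8 lists (y axis), 1 circle per gene, filled where the edgeR adjusted p was under 0.05, with a line at the median of each list. Among the 10 HSP90 co-chaperones the 4 filled circles lie below 0, and no gene in the list of heat shock factors is filled.

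In the comparison of the 8 protein groups with both controls, 21 of the 54 network genes fell and 5 rose, with a median log2 fold change of −0.06, beside the 24.5% lower and 25.9% higher of all genes. The TRiC subunits fell in 6 of 8 (CCT6A −0.21, CCT2 −0.17) and the HSP90 co-chaperones in 5 of 10 (CHORDC1 −0.47, FKBP4 −0.39). DNAJA1 (−0.40) and DNAJA4 (−0.24) fell among 8 J-domain proteins. HSPA4 (−0.21) and HSPA4L (−0.34), which belong to the HSP110 family like HSPH1, fell, as did HSPA6 (−0.60) among the same 6 genes. HYOU1 (−0.33), HSP90B1 (−0.16) and DNAJA3 (−0.08) fell and TRAP1 rose (0.13) among the organelle chaperones. In the list of small heat shock proteins 3 of the 4 genes measured rose. These were HSPB8 (0.65), low in level as given above, HSPB11 (0.13) and HSPB7 (0.92), the last at a mean count of 7 reads. Of the HSP70 co-chaperones BAG4 (−0.17) and BAG5 (−0.11) fell and BAG2 rose (0.11). None of the heat shock factors passed (HSF1 0.03, edgeR adjusted p = 0.505). By edgeR, 0 of the 54 network genes passed for each of the 7 second proteins against PD-1 and for plain DSLB against DSLB-free. At an unadjusted p under 0.05 there were 18 with ICOS, 9 with CD40L, 8 with CD2, 7 each with CD27 and CTLA4, 1 with LAG3, 0 with TIGIT and 1 for plain DSLBs. Of all 18424 genes the numbers were 1880 with ICOS, 2091 with CD40L, 2833 with CD2, 3134 with CD27, 2445 with CTLA4, 1052 with LAG3, 681 with TIGIT and 1123 for plain DSLBs.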

How the data were processed

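RNA-seq libraries of 30 PANC-1 cultures were grouped by their sample labels (10 groups of 3, which the study calls biological replicates). Per the study's methods the authors read 75 nt from one end, trimmed with Trim Galore 0.3.3, aligned to hg38 with STAR and estimated abundances with RSEM. The library kit named there is directional. No source used here states the strand setting of the counting, the poly(A) or rRNA step or the annotation release. The deposited expected counts are RSEM estimates that the authors did not normalize, the deposited TPM values were scaled by length by the authors' RSEM run, and the deposited effective length and posterior standard deviation of the count are RSEM outputs.

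Records (60483 per library) were matched by identifier to GENCODE v44 symbols, with 4162 unmatched. Expected counts were rounded, filtered with filterByExpr (18424 genes), scaled by TMM and fitted with edgeR 4.0.16 (quasi-likelihood, robust, one mean per group over all 30 libraries, two-sided, Benjamini-Hochberg adjusted over all genes, threshold 0.05). The biological coefficient of variation was 0.0942. Depth was 21.9 to 60.5 M per library. Intervals are 95% intervals from the fit. Steps were tested on simulated data. Alternatives were DESeq2 1.42.0, limma-voom (limma 3.58.1), edgeR or DESeq2 on 6 libraries, RLE factors, other filters on low counts, a replicate block, summed HSPA1A and HSPA1B, another reference group and left-out libraries. GC and length trends (splines with 5 degrees of freedom), DSLB-free as a reference and the comparison of protein with control groups were added after the data were seen.

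The members, network lists and alternatives were chosen with earlier results of these data known. All 10 members are named. Network genes past the test for PD-1 against plain DSLB are all named. For protein against control groups they are too, except that 2 each are named for the TRiC subunits and HSP90 co-chaperones. For the test of any difference only genes in the list of heat shock factors are named. Where none of a list passed, up to 2 are named. The 3 genes most like a called member are given by Pearson correlation of log2 CPM (prior count 2).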

Additional observations from a re-analysis of the deposited data

How the results depend on the processing

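Counts of chaperone genes called are given out of 10 unless stated. For PD-1/CD2 against PD-1 the count was 1, and it was 2 with DESeq2 on all libraries or with a length trend removed, 0 with edgeR on 6 libraries, with RLE factors, with a mean count of at least 100 or without the 3 libraries that stood apart, and 6 with plain DSLB as the reference. The HSPA8 call behind it was lost without PD-1 replicate 1, 2 or 3 and without PD-1/CD2 replicate 2 or 3 (count 0 to 1). Of all 18424 genes, DESeq2 on all libraries called 533 for PD-1/CD2, and edgeR with the length trend removed called 492. For PD-1/CD27 the count was 0, and it was 2 with DESeq2 on all libraries, with edgeR on 6 libraries or with a GC trend removed, 3 with DESeq2 on 6 libraries or with a length trend removed, 5 against plain DSLB, and 0 to 1 without 1 library, the 1 being without PD-1/CD27 replicate 2. Of all 18424 genes, those called for PD-1/CD27 were 783 with DESeq2 on all libraries, 930 with the GC trend and 1262 with the length trend removed. On 6 libraries they were 1037 of 17004 with edgeR and 1452 of 17004 with DESeq2. DESeq2 on 6 libraries called 1 gene for PD-1/CD40L and 2 for PD-1/ICOS, where the main count was 0. There it called 170 of 16772 and 890 of 17226 genes. With plain DSLB as the reference, 7 were called for PD-1/CD40L, 6 for PD-1/ICOS, 6 for PD-1/CTLA4, 5 for PD-1/LAG3 and 3 for PD-1/TIGIT. For PD-1 against plain DSLB the count was 3, and it was 5 with DESeq2 or edgeR on 6 libraries or with a mean count of at least 100, 8 for all protein against both control groups, and 1 to 2 without 1 library. It was 1 without plain DSLB replicate 1, 2 or 3 and without PD-1 replicate 2 or 3, HSPH1 being called in each. On 6 libraries, DESeq2 called 5333 and edgeR 6138 of 16810 genes for PD-1 against plain DSLB. At a mean count of at least 100, 3812 of 12668 genes were called. All genes called were not counted for the fits without 1 library. The test of any difference called 6 to 8 without 1 library. With a GC trend removed it again called 7, with HSPA1A and HSPA1B in place of HSPD1 and HSPE1. Of all 18424 genes it called 8173 there. The cause of these shifts was not tested. In all, 175 of 211 alternative counts stayed within 1.5 times the main one, where a 0 that stayed at 0 also counts. Comparisons with a main count of 0 add many of these, so the total does not measure how firm the calls were. Among 79 log2 fold changes recomputed for called genes none reversed in sign, and 24 fell short of the threshold.

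The study's methods describe parallel biological replicates, so the replicate number may mark cultures handled together. Deviations from group means of libraries with the same number correlated at 0.0104 on average (−0.27 to 0.27, 135 pairs), against −0.00516 for different numbers. This shows no strong shared deviation over the genes tested, and it does not show that the cultures were unpaired. A fit with the replicate number as a block called 1 gene for PD-1/CD27 against PD-1 (DNAJB1), 1 for PD-1/CD2 against PD-1, 4 for PD-1 against plain DSLB and 7 for any difference. Of all 18424 genes it called 448, 261, 4167 and 7757, in that order.

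The counts of all genes called moved more. Those against PD-1 ran from 6 (edgeR on 6 libraries) to 828 (no filter on low counts) around 227 for CD2, from 46 (without the 3 libraries) to 1452 (DESeq2 on 6 libraries) around 421 for CD27, from 1 to 481 around 2 for CD40L, from 4 to 699 around 8 for CTLA4, and from 0 up to 890 for ICOS, 288 for LAG3 and 126 for TIGIT. PD-1 against plain DSLB gave 4054, and 6138 with edgeR on 6 libraries. Plain DSLB against DSLB-free gave 2, and 0 to 199 over the alternatives.

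The shallowest count of a member was 3243 reads, and standard errors for PD-1 against plain DSLB, from the fit over all 30 libraries, were 0.0617 (DNAJB1) to 0.115 (HSPA1A).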
